A study of Mus musculus with 8 samples.

Results

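The 10 genes described here code for the core of the insulin signalling pathway and were taken by name: Insr, Irs1, Irs2, Pik3r1, Pik3ca, Akt1, Akt2, Foxo1, Slc2a4 and Tbc1d4. Each was measured by 1 probe set, so all 10 were found among the 21115 probe sets of the series, of which 20405 carried a gene symbol. RNA of brown adipose tissue was measured on Affymetrix Mouse Gene 1.1 ST arrays in 4 control mice and in 4 GRBATKO mice, in which the glucocorticoid receptor is knocked out in brown fat. All 8 mice had lived at 5 °C for 1 week and were 16 to 20 weeks of age when the cold began, so no group kept warm was compared. The controls are labelled wild type on the samples and Flox, meaning that their receptor gene is flanked by recombination sites, in the series description. The sources used here do not name the promoter that drives the recombinase. Values are log2 intensities, and a difference is always GRBATKO minus control.

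Insulin binds its receptor on the cell surface, and the receptor then phosphorylates the IRS adaptor proteins. These recruit PI3-kinase, whose lipid product brings the kinase AKT to the membrane, and AKT in turn keeps the transcription factor FOXO1 out of the nucleus and releases the glucose transporter GLUT4 to the cell surface. Brown fat is among the tissues most responsive to insulin, and in the cold it takes up large amounts of glucose and fatty acids. Glucocorticoids are known to counteract insulin in several tissues.

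None of the 10 genes passed the threshold between genotypes (limma adjusted p from 0.562 to 0.998), where 0.0237% of all probe sets did. Pik3r1 and Irs1 had the largest positive differences, 0.50 and 0.35, and were the 2 members with an unadjusted p under 0.05, as were 8.62% of all probe sets in either direction and 4.22% on the higher side. For both genes the 2 groups overlapped, as they did for all 10 members, while 5.64% of all probe sets showed no overlap. The median difference of the 10 genes was -0.03, against -0.0022 over all probe sets, with 2 members higher and 8 lower in mean. The targeted gene itself, Nr3c1, fell by 0.86 (SE 0.08, limma adjusted p = 0.00697), from 8.51 to 8.68 in control mice to 7.61 to 7.83 in GRBATKO mice, so the labels of all 8 arrays matched it. The sources used here do not say where its probes lie relative to the deleted part.

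**Figure D1:**
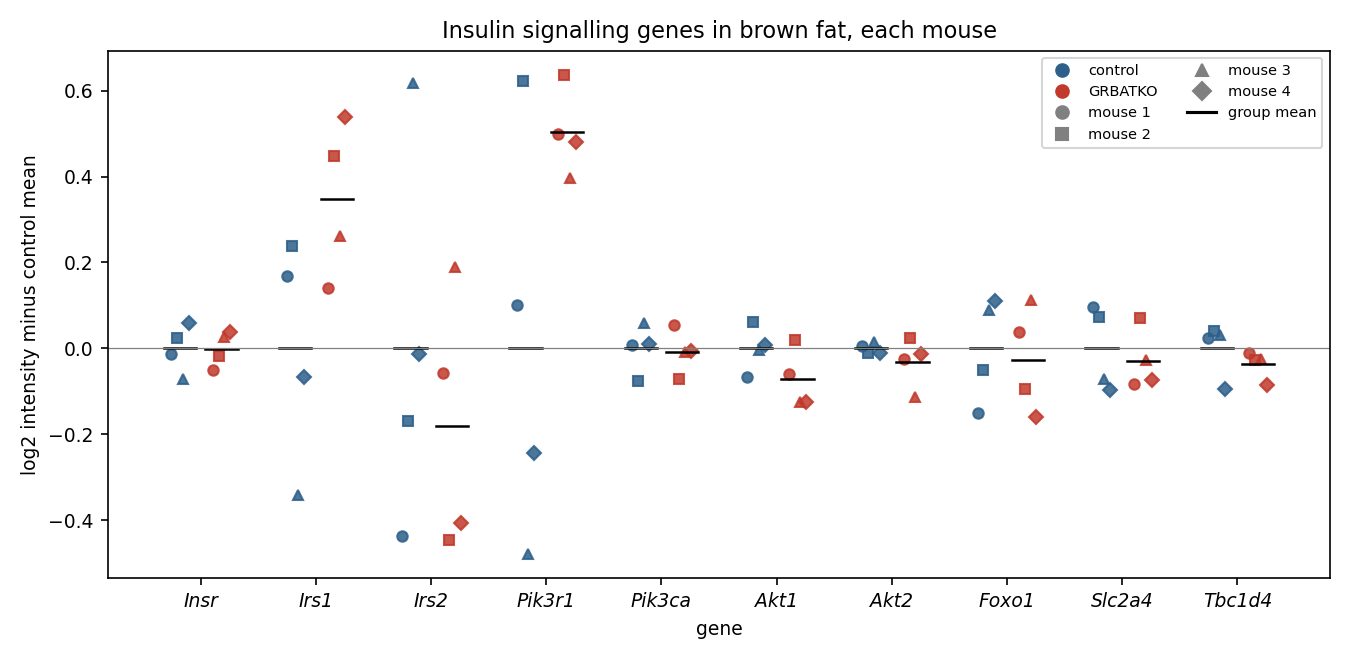
Log2 intensity of each of the 10 genes in each mouse, shown as the distance from the control mean of that gene (vertical axis), with control mice in blue, GRBATKO mice in red, a marker shape for each mouse number and a bar at each group mean. Irs1, Irs2 and Pik3r1 spread over 0.88 to 1.12 log2 units between mice, and the other 7 genes over 0.13 to 0.27.

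Array medians lay between 4.42 and 4.44, and arrays correlated at 0.990 to 0.993 within and between groups. The lower quartile was 3.03 in control 1 and 3.05 in control 4, against 2.84 to 2.90 on the other 6 arrays. Dim probe sets thus tended to read higher on those controls, and its part in the differences of dim genes was not tested. The extraction text names peritoneal macrophages, against the tissue field, but Ucp1, which codes for the uncoupling protein that makes heat, stood at 12.97 to 13.07 and was at rank 1 or 2 on every array. Summed linear intensities of 10 macrophage markers were 797 to 1169 in control and 866 to 1363 in GRBATKO mice. The sum of 12 skeletal muscle markers was 2666 in control 3, 776 in GRBATKO 4 and 124 to 246 in the other 6 mice. Lymphocyte markers summed to 672 in GRBATKO 2 against 202 to 340 elsewhere. The 8 adipocyte markers summed to 15990 to 16625 in control mice and to 16791 to 17849 in GRBATKO mice, without overlap of the sums. The brightest markers weigh most in such a sum. All 8 had the higher mean in the knockout, as did 49.4% of all probe sets. Adipoq, the first marker of the list, overlapped by itself, at 10.63 to 10.72 in control and 10.71 to 10.81 in GRBATKO mice (limma adjusted p = 0.701). Sums of the 8 brown adipocyte markers overlapped, at 19907 to 21336 in control and 20795 to 21322 in GRBATKO mice. Of these, 5 had a higher and 3 a lower mean in the knockout. No marker of either list passed the threshold. Controls filled array rows A and B and GRBATKO mice rows C and D, so the row cannot be told apart from the genotype. In whole tissue, fewer cells of a type and less RNA per cell cannot be told apart either. Nothing in the labels says how the tissue of each mouse was taken, so the spread behind each p-value may be partly technical.

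Insr, the insulin receptor, was the gene with the smallest difference of the 10. The controls averaged 8.75 ± 0.06 (SD, n = 4) and the GRBATKO mice 8.75 ± 0.04 (SD, n = 4), with single mice from 8.68 to 8.81 and from 8.70 to 8.79. The GRBATKO range lay inside the control range. The difference was -0.0006 (SE 0.07, limma adjusted p = 0.998), and its 95% interval ran from 0.902 to 1.11 times the control level.

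Among the other receptors on the list, Igf2r, which clears IGF2, differed by 0.10 (SE 0.08), and Insrr, the receptor's orphan relative, by -0.06 (SE 0.08). All 4 receptor genes missed the threshold. Of 11 ligand and binding protein genes listed, 10 were measured and none passed. In mean, 8 of the 10 were lower, and the list median was -0.12. Igfbp1 and Igfbp2, among the lower ones, were dim, with control means of 2.66 and 3.38. Both were highest in control 1 and control 4, whose lower quartiles stood above those of the other arrays. Ins2, an insulin gene transcribed in the pancreas, stood at 3.87 ± 0.21 (SD, n = 4) and 3.59 ± 0.12 (SD, n = 4) in control and GRBATKO tissue. It differed by -0.27 (SE 0.11, limma adjusted p = 0.563), and without a detection call the distance of such a low value from background is not known. Igfbp7, an abundant secreted binding protein of the IGF family, differed by -0.15 (SE 0.08).

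Irs1, a main adaptor of insulin signalling in fat cells, had a higher mean in the knockout but did not pass. The control mice 1 to 4 read 7.37, 7.44, 6.86 and 7.14, and the GRBATKO mice 1 to 4 read 7.34, 7.65, 7.47 and 7.74. Control 3 and control 4 were the 2 lowest mice of all, GRBATKO 4 and GRBATKO 2 the 2 highest, and GRBATKO 1 lay below control 1 and control 2. The means were 7.20 ± 0.26 (SD, n = 4) and 7.55 ± 0.18 (SD, n = 4), a difference of 0.35 (SE 0.14, limma unadjusted p = 0.0335, adjusted p = 0.562). That is 1.27 times the control level, with a 95% interval of 1.02 to 1.58. Control 3, the lowest in Irs1, had the most muscle marker signal, and GRBATKO 4, the highest in Irs1, had the next most. The difference was 0.23 without control 3 (limma adjusted p = 0.627) and 0.43 without control 2 (limma adjusted p = 0.380). Without both control 3 and GRBATKO 4 it was 0.17 (limma adjusted p = 0.739). With the mean of the muscle markers held in the fit, the Irs1 difference was 0.30 (limma adjusted p = 0.657). By group mean, adipocyte markers were also higher in GRBATKO mice, and their part in the Irs1 difference was not tested.

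Irs2, the second main adaptor and a known FOXO target gene, varied widely between the mice of both groups. In control mice 1 to 4 it read 5.13, 5.40, 6.18 and 5.55, and in GRBATKO mice 1 to 4 it read 5.51, 5.12, 5.75 and 5.16. Control 3 stood above all other mice, and GRBATKO 2 and control 1 were the 2 lowest. Controls ran from 5.13 to 6.18 and GRBATKO mice from 5.12 to 5.75, so the groups overlapped except for control 3 at the top. The difference was -0.18 (SE 0.22, limma adjusted p = 0.839). Its interval of 0.624 to 1.25 times control held changes of either sign, and the smallest change detectable with these arrays was not computed. Its sign rested on control 3: without that mouse Irs2 differed by 0.03 (limma adjusted p = 0.971). A fit that also held the mean of the muscle markers gave -0.10 (limma adjusted p = 0.922).

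The stretches just upstream of the Irs1 and Irs2 starts are shown because these were the only member promoters searched that held an E-box. The E-box is the letters CACGTG, which transcription factors of the bHLH class bind. The set of RefSeq (GRCm38.p6) promoters used here held 13 starts for 8 of the 10 genes. It held none for Insr and Slc2a4, whose promoters were not searched. The 250 bases before each start were searched on both strands. Capitals mark the E-box, which lies 115 to 110 bases before the Irs1 start and 44 to 39 bases before the Irs2 start.
Irs1, chr1:82291440-82291689, minus strand: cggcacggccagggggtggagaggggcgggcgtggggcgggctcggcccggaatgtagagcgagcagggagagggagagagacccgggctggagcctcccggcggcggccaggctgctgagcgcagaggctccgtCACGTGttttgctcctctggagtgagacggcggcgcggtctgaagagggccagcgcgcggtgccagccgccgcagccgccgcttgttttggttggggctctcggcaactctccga
Irs2, chr8:11008930-11009179, minus strand: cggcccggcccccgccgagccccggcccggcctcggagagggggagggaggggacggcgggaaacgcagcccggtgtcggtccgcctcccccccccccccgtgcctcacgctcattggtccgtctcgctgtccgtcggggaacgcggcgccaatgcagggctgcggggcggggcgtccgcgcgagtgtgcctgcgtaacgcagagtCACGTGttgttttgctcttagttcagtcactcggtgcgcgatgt
The E-box occurred in 6.02% of all 32851 promoters. Both stretches were rich in G and C, at 72.4% and 72.8%, against a median of 52.4% over all promoters. A match of letters is a description and does not show that any factor binds there.

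Of the 14 adaptors listed, 13 were measured and none passed. The list median was -0.09, and 9 of 13 means were lower. Irs4, a family member used mainly outside fat, differed by -0.22 (SE 0.11) and Dok5, another docking protein, by -0.25 (SE 0.14), both with group means under 3 in log2 intensity.

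Pik3r1, the main regulatory subunit of PI3-kinase, had the largest difference of the 10 genes and the widest range over the 8 mice. The control mice 1 to 4 read 8.22, 8.74, 7.64 and 7.88, while the GRBATKO mice 1 to 4 read 8.62, 8.76, 8.52 and 8.60. All 4 GRBATKO mice lay within 0.24 of each other near the top of the control range, control 2 was level with them, and the other 3 controls lay below. The SD was 0.48 in control and 0.10 in GRBATKO mice (n = 4 each), where the medians over all probe sets were 0.15 and 0.13; no test of the unequal spread was run. Means of 8.12 and 8.62 gave a difference of 0.50 (SE 0.20, limma unadjusted p = 0.0342, adjusted p = 0.563), or 1.42 times control with an interval of 1.03 to 1.95. Without control 2 the difference was 0.71 (limma adjusted p = 0.240), without control 3 it was 0.34 (limma adjusted p = 0.629), and in the fit that held the muscle markers it was 0.40 (limma adjusted p = 0.640). None of these settings brought Pik3r1 past the threshold. As with Irs1, the adipocyte marker sum was also higher in the GRBATKO group, but control 2 lay below all 4 GRBATKO mice in that sum. The part of the adipocyte markers was not tested.

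**Figure D2:**
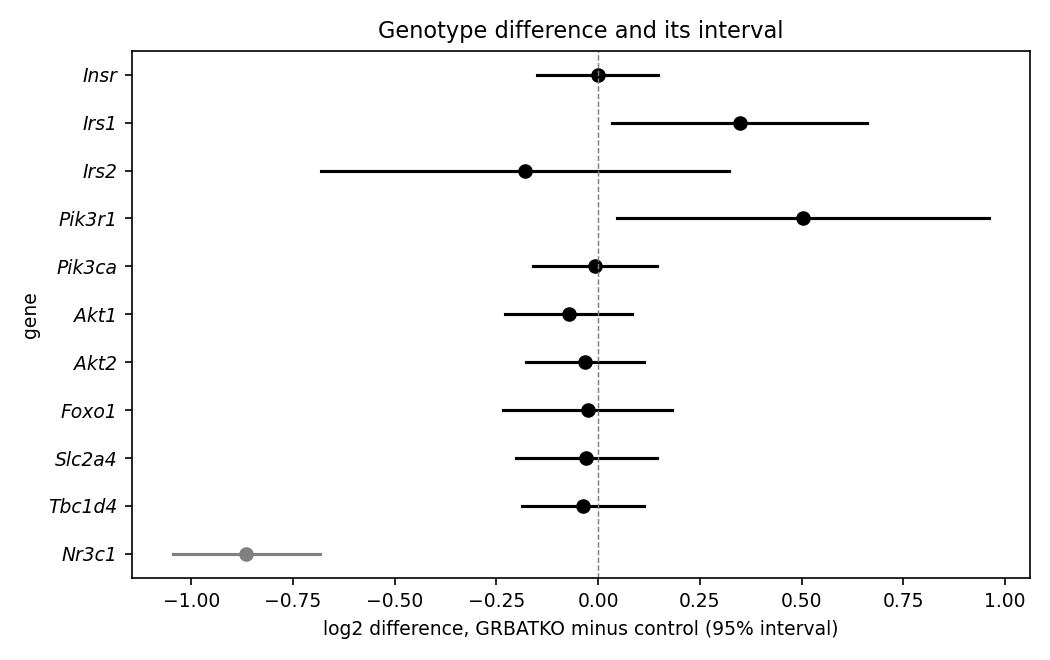
Log2 difference between GRBATKO and control mice (dot) with its 95% interval from the limma fit (line) for the 10 genes and, in grey, for the targeted gene Nr3c1. The intervals of Irs1 and Pik3r1 start just above 0 before any adjustment for the number of probe sets, and those of Irs2 and Pik3r1 are the widest.

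Pik3r1 has 2 starts in RefSeq (GRCm38.p6), shown because the array gives 1 value for the whole gene and cannot say which start the differing mice used. No capitals appear, since neither stretch held the E-box, the FOXO motif GTAAACA or the glucocorticoid receptor half-site TGTTCT, on either strand.
Pik3r1 upstream start, chr13:101768218-101768467, minus strand: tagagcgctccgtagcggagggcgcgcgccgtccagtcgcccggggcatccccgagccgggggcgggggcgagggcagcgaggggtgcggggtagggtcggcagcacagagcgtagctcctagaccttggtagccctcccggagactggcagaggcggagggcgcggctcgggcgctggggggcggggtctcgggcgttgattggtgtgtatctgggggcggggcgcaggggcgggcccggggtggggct
Pik3r1 downstream start, chr13:101692631-101692880, minus strand: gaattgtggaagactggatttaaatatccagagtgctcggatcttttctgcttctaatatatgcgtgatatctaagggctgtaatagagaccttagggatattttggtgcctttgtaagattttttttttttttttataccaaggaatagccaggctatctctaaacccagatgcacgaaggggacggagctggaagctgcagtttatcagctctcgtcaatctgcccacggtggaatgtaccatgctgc
Their G and C content was 76.4% and 42.4%. No match says only that these letters are absent from the 250 bases before the start.

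Pik3ca, a catalytic subunit that partners Pik3r1, did not share its pattern of means. Its means were 8.38 ± 0.06 (SD, n = 4) for control and 8.37 ± 0.05 (SD, n = 4) for GRBATKO mice, and single mice ran from 8.30 to 8.44 and from 8.31 to 8.43. The groups overlapped almost fully. The difference was -0.01 (SE 0.07, limma adjusted p = 0.981), with an interval of 0.896 to 1.10 times control. Of the 6 PI3-kinase genes measured, 5 were higher in mean, with a list median of 0.13. Pik3r2, another regulatory subunit, differed by 0.10 (SE 0.08) and Pik3cd, the catalytic subunit typical of leukocytes, by 0.19 (SE 0.15). None of the 6 passed.

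Akt1 and Akt2 code for the kinases at the centre of the pathway, Akt2 being the form tied to glucose uptake in fat. Akt1 averaged 8.31 ± 0.05 (SD, n = 4) among controls and 8.24 ± 0.07 (SD, n = 4) among GRBATKO mice. GRBATKO 3 and GRBATKO 4, both at 8.18, lay below the lowest control at 8.24, and the other 2 lay inside the control range. The difference of -0.07 (SE 0.07, limma adjusted p = 0.793) had an interval of 0.854 to 1.06 times control. Akt2 was the steadiest gene in control mice, at 11.02 ± 0.01 (SD, n = 4), against 10.98 ± 0.06 (SD, n = 4) in GRBATKO mice. GRBATKO 3, at 10.90, was the lowest mouse and the others read 10.99 to 11.04. Its difference was -0.03 (SE 0.06, limma adjusted p = 0.908), with an interval of 0.884 to 1.08.

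In the list of AKT and its kinases, which holds Akt1, Akt2 and partners of mTOR as well, 7 of 8 genes were measured and none passed, with a median of 0.01. Mtor, the kinase of both mTOR complexes, differed by 0.10 (SE 0.08) and its partner Mlst8 by -0.05 (SE 0.08).

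Foxo1, the transcription factor that AKT inactivates, did not differ in mean by more than its spread. Control mice 1 to 4 read 7.53, 7.63, 7.77 and 7.79, and GRBATKO mice 1 to 4 read 7.72, 7.58, 7.79 and 7.52. High and low mice occurred in both groups. The difference was -0.03 (SE 0.09, limma adjusted p = 0.950), with an interval of 0.851 to 1.13 times control.

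Genes that FOXO1 is known to induce showed no common direction: 18 were measured, 9 had a higher and 9 a lower mean, the median was 0.004 and none passed. Klf15, a transcription factor of fasting metabolism that glucocorticoids are known to induce, read 6.32, 7.42, 7.01 and 7.15 in control mice 1 to 4. GRBATKO mice 1 to 4 read 6.55, 6.53, 6.17 and 6.44. All 4 knockout values lay below the 3 higher controls, and control 1 lay among them. Its difference was -0.55 (SE 0.21, limma unadjusted p = 0.0261, adjusted p = 0.543). Sesn3, a stress protein of the sestrin family, differed by 0.21 (SE 0.09, limma adjusted p = 0.563), and only GRBATKO 3 at 6.29 lay below the highest control at 6.31. Bcl6, a repressor named here after its values were seen, had the largest difference in the pathway, -0.73 (SE 0.42, limma adjusted p = 0.674). It was 9.05 in control 1 and 8.96 in control 3 against 7.13 to 8.16 in the other 6 mice.

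Tbc1d4, also called AS160, holds GLUT4 inside the cell until AKT phosphorylates it. Its means were 7.91 ± 0.06 (SD, n = 4) for control and 7.87 ± 0.03 (SD, n = 4) for GRBATKO mice. Control 4 at 7.81 lay apart from the other controls at 7.93 to 7.95, and the GRBATKO mice read 7.83 to 7.90, between them. The difference was -0.04 (SE 0.07, limma adjusted p = 0.894), with an interval of 0.879 to 1.08. The stretch before its start is shown because it was the only one of the 13 member promoters with a glucocorticoid receptor half-site, a sequence present in 16.1% of all promoters. Capitals mark the half-site, read as AGAACA on the gene's strand, 214 to 209 bases before the start.
Tbc1d4, chr14:101609192-101609441, minus strand: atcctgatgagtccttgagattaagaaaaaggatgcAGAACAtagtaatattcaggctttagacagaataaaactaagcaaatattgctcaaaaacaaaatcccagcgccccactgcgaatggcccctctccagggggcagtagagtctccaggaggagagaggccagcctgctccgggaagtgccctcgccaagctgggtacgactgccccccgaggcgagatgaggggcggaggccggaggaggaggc
The FOXO motif was found before 1 of the 2 Akt1 starts and no other member start, against 3.17% of all promoters.

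In the wider group of AKT substrates and the mTOR complex 1 arm, 17 of 18 listed genes were measured, 13 were higher in mean and none passed. The median was 0.07. Tsc2, a brake on mTOR complex 1 that AKT removes, read 8.75, 8.99, 9.02 and 8.91 in control mice 1 to 4 and 9.15, 9.06, 9.06 and 9.05 in GRBATKO mice 1 to 4. Every GRBATKO mouse lay above every control, narrowly for GRBATKO 4 over control 3. Its difference of 0.16 (SE 0.08, limma adjusted p = 0.611) did not pass.

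Slc2a4 codes for GLUT4, the insulin-responsive glucose transporter, which skeletal muscle also expresses. Control mice 1 to 4 read 10.57, 10.55, 10.40 and 10.38, and GRBATKO mice 1 to 4 read 10.39, 10.55, 10.45 and 10.40. The 2 mice with the most muscle marker signal, control 3 and GRBATKO 4, were not high in Slc2a4. The difference was -0.03 (SE 0.08, limma adjusted p = 0.934), with an interval of 0.870 to 1.11 times control. Of 13 genes of GLUT4 and its traffic 12 were measured, with a median of 0.01 and none past the threshold. Sort1, the sortilin that helps form GLUT4 vesicles, differed by 0.13 (SE 0.07) and Exoc7, part of the exocyst that tethers them, by 0.14 (SE 0.09).

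Inhibitors of the pathway held the smallest p-value of all the lists, and still none passed. Of 21 listed, 19 were measured, with 8 higher and 11 lower means and a median of -0.01. Trib3, a pseudokinase that binds AKT, read 5.06, 5.28, 5.84 and 5.32 in control mice 1 to 4 and 4.83, 4.95, 4.78 and 4.83 in GRBATKO mice 1 to 4. All knockout values lay below all controls, with control 3 the highest. The difference was -0.53 (SE 0.15, limma unadjusted p = 0.00556, adjusted p = 0.402), or 0.694 of control. Prkcd, a protein kinase C that can phosphorylate IRS proteins, lay between 6.50 and 6.58 in control and between 6.33 and 6.42 in GRBATKO mice, again without overlap. It differed by -0.17 (SE 0.06, limma adjusted p = 0.547). Ptpn2, a tyrosine phosphatase that acts on the insulin receptor, lay between 5.56 and 5.69 in control and between 5.70 and 5.93 in GRBATKO mice, and differed by 0.15 (SE 0.08, limma adjusted p = 0.611).

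Genes that insulin is known to induce, 9 measured of 10, had a median of 0.05 and none passed. Hk2, the hexokinase that traps glucose in the cell, read 10.48 to 10.66 in control and 10.66 to 10.80 in GRBATKO mice. The groups touched without overlapping, and the difference was 0.12 (SE 0.07, limma adjusted p = 0.697).

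Taking all 103 measured pathway genes beside the 10 together, none passed the threshold in either direction. At an unadjusted p under 0.05 there were 5, which is 4.85% against 8.62% of all probe sets. Groups did not overlap in 5, also 4.85%, against 5.64% of all probe sets. The median difference was 0.02, with 58 genes higher and 45 lower in mean, where 49.4% of all probe sets were higher. With the 10 genes included, the shares were 6.19% with an unadjusted p under 0.05 and 4.42% without overlap. No test of these shares against the whole array was run.

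**Figure D3:**
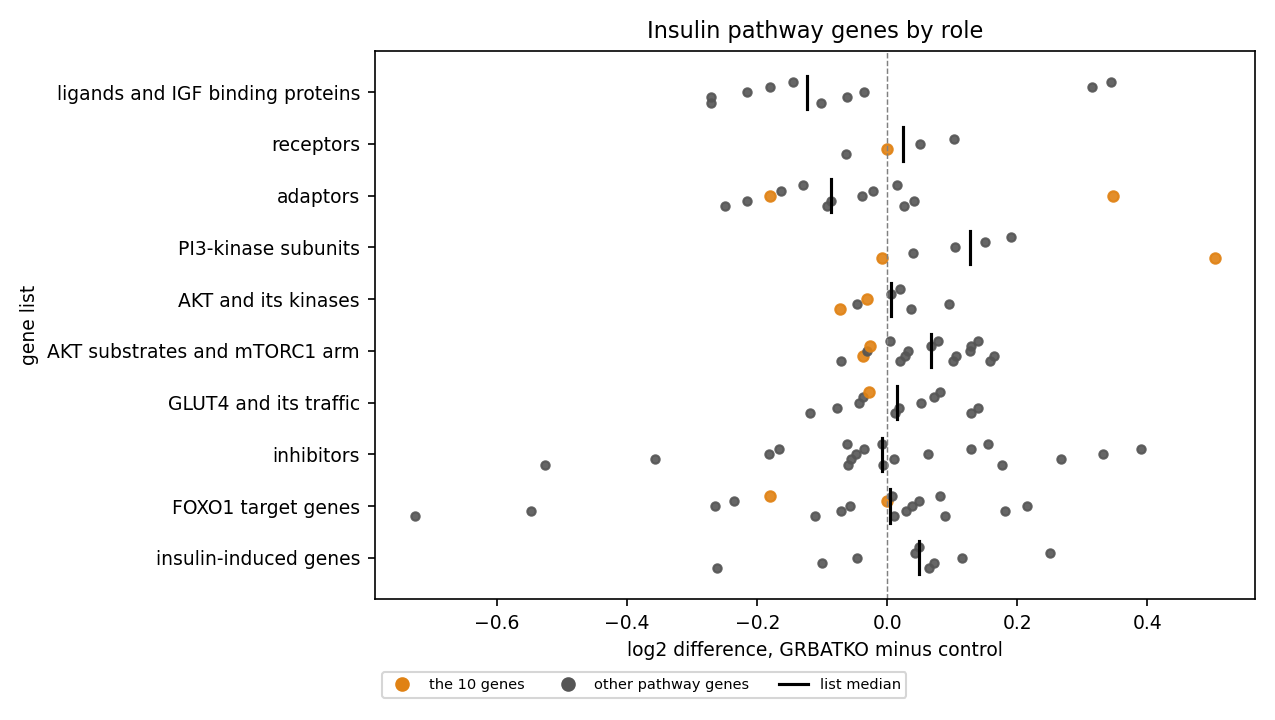
Log2 difference between GRBATKO and control mice (horizontal axis) of each measured insulin pathway gene, 1 dot a gene, in rows by role, with the 10 genes in orange and a black bar at each list median. The medians lie between -0.12 and 0.13, and Pik3r1 at 0.50 and Bcl6 at -0.73 are the ends of the range.

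Relations between the 10 genes over the 8 mice were examined in all 45 pairs. Permutations ran over all 8 mice regardless of genotype, so a p can also reflect a genotype difference in both genes. The closest pair by Pearson r was Irs1 and Pik3r1 (Pearson r = 0.88, two-sided exact permutation p = 0.00375, adjusted over the pairs p = 0.169). By rank the relation was weaker (Spearman rho = 0.67, exact permutation p = 0.0831, adjusted p = 0.680), and r was 0.83 without control 3 and GRBATKO 4, the mice farthest from the middle in Irs1. The next was Irs2 and Foxo1 (r = 0.83, exact permutation p = 0.00756, adjusted p = 0.170; rho = 0.83, p = 0.0154, adjusted p = 0.680), with r = 0.96 without control 3 and GRBATKO 2. Irs1 and Irs2 had the largest negative r (r = -0.80, exact permutation p = 0.0161, adjusted p = 0.242). By rank, rho was -0.62 for this pair (exact permutation p = 0.115, adjusted p = 0.680). Without control 3 and GRBATKO 4 its r was -0.41. Leaving out the mice farthest from the middle also narrows the range, so this value does not settle what the relation rested on. These 3 pairs were the ones with a Pearson p under 0.05. By rank, 2 pairs had a p under 0.05, Irs2 with Foxo1 and Irs1 with Pik3ca. For Irs1 and Pik3ca rho was -0.76 (exact permutation p = 0.0368, adjusted p = 0.680) and r was -0.63 (exact permutation p = 0.0865, adjusted p = 0.472), or -0.64 without control 3 and GRBATKO 4. No pair held after adjustment over the 45 by either measure. With each group's mean taken out, r over the 8 mice was 0.78 for Irs1 and Pik3r1, 0.83 for Irs2 and Foxo1, -0.88 for Irs1 and Irs2 and -0.78 for Irs1 and Pik3ca. No coefficient is given within a single genotype or array row, which held too few mice.

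**Figure D4:**
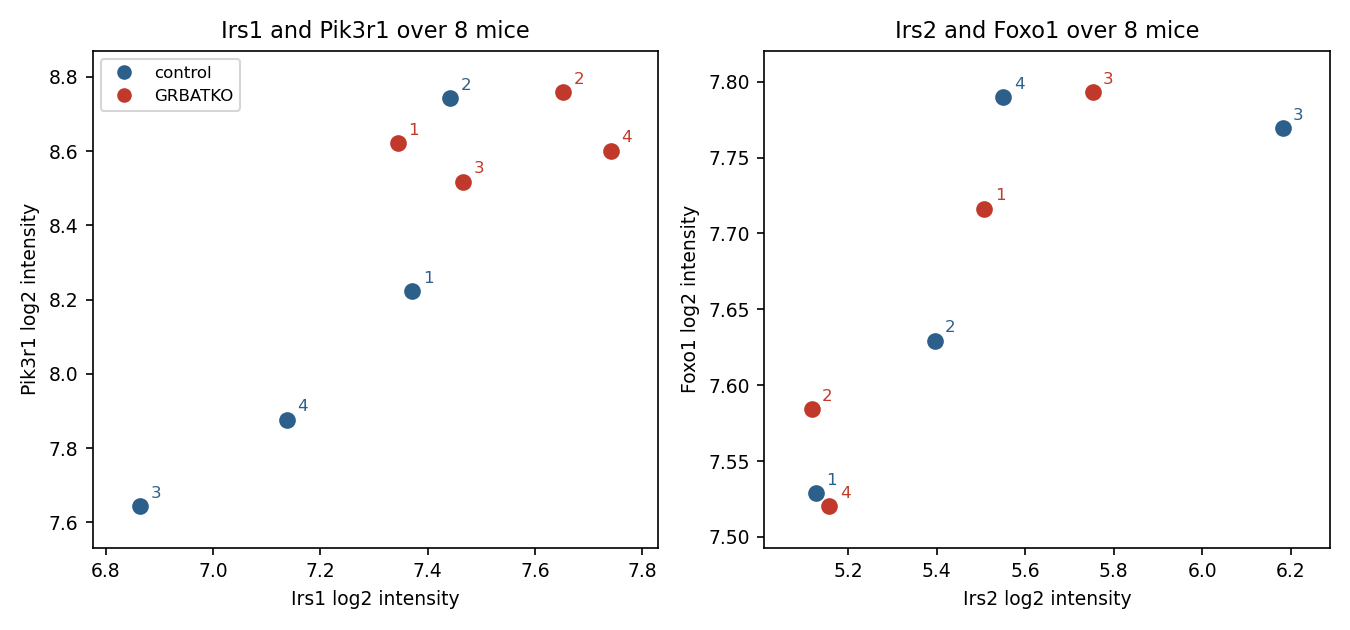
Log2 intensity of Irs1 against Pik3r1 (left) and of Irs2 against Foxo1 (right) in the 8 mice, numbered within each group, controls in blue and GRBATKO in red. Control 3 and control 4 are lowest in both Irs1 and Pik3r1. In the right panel the genotypes overlap, with control 3 the highest in Irs2.

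Over the deviations of the 8 arrays from their group means, each of the 10 genes had 34 to 85 probe sets with a Pearson correlation above 0.9 among 17878 named ones, a number that so few arrays give easily. The most alike was Rskr for Irs1 (r = 0.992), Cpeb4 for Irs2 (r = 0.989), Casp1 for Pik3r1 (r = 0.979) and Tab3 for Pik3ca (r = 0.990). For the remaining genes it was Slc25a29 for Insr (r = 0.987), H2ac11 for Akt1 (r = 0.995), Fam78a for Akt2 (r = 0.989), Rcor3 for Foxo1 (r = 0.987), Fgf2 for Slc2a4 (r = 0.990) and Gtpbp8 for Tbc1d4 (r = 0.985). None of these 10 partners was another member or passed the genotype test.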

How the data were processed

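The deposited table holds 1 linear intensity per probe set and array, which the authors made with RMA (robust multi-array averaging), per the submitters' processing notes. The RMA version and the genome build are not named in those sources. Values ran from 2.07 to 9168, so log2 was taken before every test. No detection call was used, and precision is limited by the number of arrays. Genes were named through the platform annotation, and 710 probe sets without a symbol were tested unnamed. Listed genes without a probe set were not analysed here.

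The 2 genotypes were compared by limma (version 3.58.1, R 4.3.3) with genotype alone in the model, a constant variance prior and all 21115 probe sets. Benjamini-Hochberg adjustment ran over all of them, and an adjusted p under 0.05 counted as passing. Intervals are 95% and use the moderated standard error. The fit was tested on simulated data.

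The members, gene lists and alternatives were chosen with earlier results of these data known. Text names the 10 genes and, per list, further genes without overlap between groups (at most 4) or otherwise the 2 of smallest p, plus Nr3c1 and Ucp1. Alternatives covered the variance prior, array weights, normalization, filters, blocks, a muscle marker covariate and arrays left out. Same-numbered arrays of the 2 groups correlated at -0.06 to 0.09 in their deviations from the group means, so the numbers were not treated as pairs. Promoter sequences are from RefSeq, and figures were drawn with matplotlib 3.10.9.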

Additional observations from a re-analysis of the deposited data

Results flagged for a closer look

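In 4 of 62 group-and-gene combinations examined for the genes named (6.45%), 1 mouse lay far from the other 3 of its group by Dixon's criterion, which chance meets in about 1 of 20. Tbc1d4 in control 4 read 7.81, while the other controls read 7.93 to 7.95. Tsc2 was 9.15 in GRBATKO 1 against 9.05 to 9.06 in the other GRBATKO mice. Pik3r2 was 6.09 in GRBATKO 4 against 5.89 to 5.92, and Mlst8 was 6.69 in control 2 against 6.44 to 6.47.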

How the results depend on the processing

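Across 202 values of the 10 genes under 21 alternatives, none passed the threshold (lowest limma adjusted p 0.240, Pik3r1 without control 2), and 183 kept their sign. Irs1, Pik3r1, Akt1, Akt2 and Tbc1d4 never changed sign, with Irs1 between 0.17 and 0.43 and Pik3r1 between 0.34 and 0.71. Leaving out 1 array gave ranges of -0.024 to 0.019 for Insr, 0.23 to 0.43 for Irs1, -0.33 to 0.026 for Irs2, 0.34 to 0.71 for Pik3r1, -0.033 to 0.014 for Pik3ca, -0.10 to -0.052 for Akt1, -0.050 to -0.0047 for Akt2 (upper end without GRBATKO 3), -0.069 (without control 4) to -0.022 for Tbc1d4, -0.076 to 0.019 for Foxo1 and -0.061 to 0.0037 for Slc2a4. Signs also turned for Insr with array weights (0.0076), with arrays centred on their medians (0.0070) and without control 1 and control 4 (0.023). They turned for Pik3ca with the muscle covariate (0.0039), without control 1 and control 4 (0.0014) and without control 3 and GRBATKO 4 (0.011). Without control 3 and GRBATKO 4, Irs2 (0.10) and Foxo1 (0.049) turned too; the cause was not tested. With flat probe sets left out, 8 of the 10 genes were not in the fit.

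The count of probe sets past the threshold was 5. An intensity trend in the prior gave 30. It came to 1 with the ordinary t statistic, 8 after repeated quantile normalization, 14 without dim and 10 without flat probe sets, 1 with the replicate number as a block, 3 without control 1 and control 4, 2 without control 3 and GRBATKO 4, 15 at an adjusted p under 0.1, and 3 to 5 with 1 array left out. Nr3c1 stayed past the threshold in 16 of 21 alternatives (adjusted p up to 0.157, with the replicate block). The block changed no call among the 10 genes. Leaving out GRBATKO 2 gave the count of 3.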
